A study of Mus musculus with 4 samples.

Results

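Transcripts of 6 sugar transporter genes were followed across cell classes and libraries in a Drop-seq study of mouse renal cortex: Slc5a2 (SGLT2), Slc5a1 (SGLT1), Slc2a2 (GLUT2), Slc2a1 (GLUT1), Slc2a5 (GLUT5) and Slc2a9 (GLUT9). The genes were set by name among the 22078 genes with counts in the 4 libraries, and all 6 had at least 1 transcript in every library. The 2 Akita libraries came from mice labelled C57BL/6-Ins2Akita/J and aged 116 and 119 days. The 2 Wild-type libraries came from mice aged 45 and 51 days. Akita mice have a mutation in Ins2, an insulin gene, in every cell and are a standard model of insulin-deficient diabetes. Age ran with genotype, so the effects of age and of genotype cannot be told apart. The sex of the mice is not given in the sources used here, and the housing time in the labels is longer than any of the ages. Drop-seq captures single cells with barcoded beads in droplets and counts each mRNA molecule by a unique molecular identifier (UMI).

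In the kidney, filtered glucose enters proximal tubule cells with sodium across the apical membrane, through SGLT2 in the early segment (S1) and SGLT1 in the late segment (S3). It leaves across the basolateral membrane through GLUT2, with GLUT1 described in later segments. GLUT5 carries fructose, GLUT9 carries urate, and SGLT2 is the target of the gliflozin drugs given in diabetes.

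On the GRCm38 genome with the GENCODE annotation, Slc5a2 (ENSMUSG00000030781) lies on the plus strand at chr7:128265657-128272430, Slc5a1 (ENSMUSG00000011034) on the plus strand at chr5:33104219-33162870 and Slc2a2 (ENSMUSG00000027690) on the plus strand at chr3:28697903-28731359. Slc2a1 (ENSMUSG00000028645) lies on the plus strand at chr4:119108711-119137983, Slc2a5 (ENSMUSG00000028976) on the plus strand at chr4:150119283-150144169 and Slc2a9 (ENSMUSG00000005107) on the minus strand at chr5:38349273-38503143. At its 3′ end, which Drop-seq reads, Slc5a2 shares 597 exonic bases (chr7:128271749-128272430) with BC017158 on the opposite strand. Slc2a1 shares 105 exonic bases with the antisense gene Gm12868. Whether the submitters' counting used strand is not given in the sources used here, so reads in these overlaps cannot be assigned to a gene with certainty. BC017158 itself had 14 UMIs, each barcode counted once, all of them in proximal cells.

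The 250 bases before the start site in RefSeq (GRCm38.p6) are shown for 4 of the genes whose levels across cell classes are described below. A promoter entry was matched for 5 of the 6 genes, all but Slc5a2. Capitals mark GC boxes (GGGCGG, or CCGCCC on the other strand, without overlap between matches). The windows are chr3:28697653-28697902 for Slc2a2, chr5:33103969-33104218 for Slc5a1, chr4:150119094-150119343 for Slc2a5 and chr4:119108495-119108744 for Slc2a1, all on the plus strand.
Slc2a2: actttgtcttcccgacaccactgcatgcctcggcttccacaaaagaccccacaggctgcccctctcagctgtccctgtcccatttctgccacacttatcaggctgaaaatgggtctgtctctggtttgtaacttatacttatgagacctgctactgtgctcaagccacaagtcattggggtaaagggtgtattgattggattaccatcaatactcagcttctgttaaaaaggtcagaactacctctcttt
Slc5a1: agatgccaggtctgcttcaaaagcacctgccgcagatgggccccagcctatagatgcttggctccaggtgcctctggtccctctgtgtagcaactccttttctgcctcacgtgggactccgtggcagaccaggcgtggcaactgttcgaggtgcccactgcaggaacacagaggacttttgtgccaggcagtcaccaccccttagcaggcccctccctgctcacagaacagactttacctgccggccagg
Slc2a5: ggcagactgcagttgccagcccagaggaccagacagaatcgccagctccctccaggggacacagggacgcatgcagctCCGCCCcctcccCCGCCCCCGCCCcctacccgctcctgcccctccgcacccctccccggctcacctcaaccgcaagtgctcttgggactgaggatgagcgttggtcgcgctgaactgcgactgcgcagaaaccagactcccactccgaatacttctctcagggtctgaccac
Slc2a1: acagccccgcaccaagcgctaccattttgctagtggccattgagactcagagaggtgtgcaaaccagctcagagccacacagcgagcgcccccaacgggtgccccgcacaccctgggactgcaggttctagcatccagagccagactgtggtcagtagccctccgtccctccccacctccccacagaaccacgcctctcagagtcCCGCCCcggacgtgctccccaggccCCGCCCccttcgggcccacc
The Slc2a5 window held 3 GC boxes and the Slc2a1 window 2, while the windows of Slc2a2, Slc5a1 and Slc2a9 held none. A GC box was found in 32.7% of 32851 promoter windows of this length. The HNF1 half-site GTTAAT (or ATTAAC), the core of the element bound by hepatocyte nuclear factor 1, was in none of the 5 windows and in 6.43% of all windows. These matches describe the letters of the windows and not binding.

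The libraries held 1016719 and 1200209 UMIs (Akita replicates 1 and 2) and 1303453 and 1115055 UMIs (Wild-type replicates 1 and 2). Barcodes with at least 200 genes and at most 50% mitochondrial UMIs were retained as cells, 311 and 600 in Akita and 564 and 441 in Wild-type, 1916 in all, with a median of 746.5 to 835 UMIs. The same 884 barcodes occurred in the Akita replicate 2 file and the Wild-type replicate 1 file, against 3 or 4 for other pairs of files. They were 73.0% of the cells retained from Akita replicate 2 and 80.5% of those from Wild-type replicate 1. Transporter transcripts in the shared barcodes coincided in part: of 424 retained in both files, 48 had a Slc2a2 UMI in Akita replicate 2, 58 in Wild-type replicate 1 and 39 in both, of which 29 had the same count. For Slc5a2 the numbers with a UMI were 8, 9 and 7 barcodes, for Slc5a1 25, 23 and 20, and for Slc2a1 7, 9 and 5. The overlap was smaller for Slc2a5, with 9, 18 and 7 barcodes, and for Slc2a9, with 4, 3 and 1. Results are therefore also given with each shared barcode kept in only 1 of the 2 files, the one with relatively more of its UMIs, called counted once below. Which file a shared barcode belongs to is an assumption of that count. It left 1492 cells.

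Cells were clustered without the 6 genes and named from markers that did not include them. Proximal tubule-like cells made up 1140 of the 1492 cells counted once. They comprised an S1-like cluster of 273 cells (leading markers Slc5a12, Slc7a8 and Slc34a3), an S3-like cluster of 21 cells (Slc22a19, Slc22a13 and Aadat) and 846 cells in clusters whose segment was not named. Loop of Henle-like cells numbered 145, with Umod at 3282 CPM against 57.7 CPM in proximal cells, where CPM (counts per 1e+06) relates a gene's UMIs to all UMIs of the cells summed. Slc12a1, the cotransporter that defines the thick ascending limb, had 1047 CPM there against 23.5 CPM in proximal cells, but its UMIs lay in 14 of the 145 cells (9.66%). The class also held distal convoluted tubule markers: its largest cluster, 66 cells as deposited, was led by Pvalb with Klhl3 in its top 10 genes, and another of 38 cells had Slc12a3 in its top 10. Intercalated-like cells numbered 79, connecting tubule-like cells 56, distal convoluted tubule-like cells 20 and macrophage or dendritic-like cells 12. A further 40 cells with a median of 2979 UMIs mixed loop and distal markers and stayed unnamed. No endothelial or podocyte cluster was found, and Pecam1 and Nphs1 had 0 and 1 UMIs. RNA released from broken cells can be read in any droplet. Kap, an abundant androgen-regulated proximal transcript, stood at 38849 CPM in proximal cells and at 6891 CPM in the 352 other cells, a 5.64-fold difference. Over 22 proximal markers, which helped to define the classes, this fold ran from 5.64 to 50.01 with a median of 9.90.

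Of the apical transporters, Slc5a2 was detected in proximal cells only. Proximal cells held 10 and 8 of its UMIs in Akita, 9 and 5 in Wild-type, and the other cells of every library held 0. Counted once, 23 UMIs in 22 of 1140 proximal cells gave 12.9 CPM (95% Poisson interval 8.17 to 19.3), and 0 UMIs in the other 352 cells allowed up to 6.09 CPM by the limit of 3 counts. Set against that limit the proximal level was 2.12-fold higher, a fold that leaves out the counting error of the 23 UMIs. By the Poisson interval, 0 UMIs in the other cells allowed up to 7.48 CPM, under the lower proximal limit of 8.17 CPM. Within the loop of Henle-like cells alone the depth was too low to tell 0 from the proximal level, since 3 counts there equal 23.3 CPM. All such intervals cover counting error only.

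Within the proximal cells as deposited, Slc5a2 was higher in the S1-like cluster. As deposited, the S1-like cells held 3 and 6 UMIs in Akita, and 5 and 1 in Wild-type, which is 45.7, 96.3, 41.2 and 19.4 CPM. The other proximal cells stood at 19.0, 3.99, 7.56 and 7.97 CPM in the same order. The S1-like value was the higher in 4 of 4 libraries, and the 2 sets of values did not overlap. Akita replicate 2 and Wild-type replicate 1 are not independent here. Of their 8 and 9 shared barcodes with a Slc5a2 UMI, 7 were the same and all 7 had the same count. The test as deposited takes them as separate libraries. With library as a block, edgeR gave a log2 fold change of 2.34 ± 0.68 (SE, 4 libraries) with an adjusted p of 0.0110. Counted once, the gene fell under the filter on low counts and had no test, since all 8 UMIs of Akita replicate 2 lay in barcodes assigned to Wild-type replicate 1. The pooled counts were then 9 UMIs (34.9 CPM) in S1-like cells and 14 UMIs (9.17 CPM) in other proximal cells, a ratio of 3.81 with a counting interval of 1.45 to 9.45. Without Akita replicate 2 the fitted change was 1.65 with an adjusted p of 0.138, and at a finer clustering (Leiden resolution 2) it was 1.74 with an adjusted p of 0.0862. BC017158, which overlaps its 3′ end, had 15.5 CPM in S1-like cells and 6.55 CPM in other proximal cells, and its part in the result was not tested.

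Slc5a1, the high-affinity cotransporter, was also mainly proximal but was not higher in S1-like cells. It stood at 36.9 and 55.0 CPM in the proximal cells of the Akita libraries and at 46.1 and 50.6 CPM in those of the Wild-type libraries, a narrow range. In loop of Henle-like cells it had 0 UMIs in 3 libraries and 1 in Wild-type replicate 2. The edgeR test of proximal against loop of Henle-like cells gave a log2 fold change of 3.15 ± 1.04 (SE, 4 libraries) and an adjusted p of 0.00981, and proximal cells were higher in 4 of 4 libraries. Counted once, the ratio of 83 to 1 UMIs relative to depth was 5.99 with a counting interval of 1.05 to 240, and the test missed the threshold with an adjusted p of 0.0707. It also missed it without Akita replicate 2 (0.154), without Wild-type replicate 1 (0.104), in DESeq2 (0.0637) and at Leiden resolution 0.5 (log2 change 2.24, adjusted p = 0.209). In the other 352 cells as a whole, 4 UMIs gave 8.12 CPM, 5.73-fold below the proximal level (interval 2.16 to 21.5), a fold near that of Kap.

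Across proximal clusters Slc5a1 stood at 31.0 CPM in S1-like cells (8 UMIs), 48.7 CPM in cells without a segment name (72 UMIs) and 63.6 CPM in S3-like cells (3 UMIs). These intervals overlapped, so the order is not established at this depth. Against other proximal cells, the S1-like cluster had a fitted log2 change of -0.79 ± 0.50 (SE, adjusted p = 0.271 in edgeR). Its values were 0 and 16.0 CPM in Akita and 33.0 and 77.7 CPM in Wild-type, against 43.5, 59.8, 49.1 and 47.8 CPM in other proximal cells. The S1-like value was the lower in 3 libraries and the higher in Wild-type replicate 2. At a coarser clustering (Leiden resolution 0.5), where the S1-like cluster is larger, the change was -1.62 with an adjusted p of 0.0145. A test of S3-like cells was not run, because they numbered 1 and 17 in Akita and 13 and 3 in Wild-type.

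Of the basolateral transporters, Slc2a2 was the member with the most UMIs, 307 in the retained cells. It was far higher in proximal cells than in loop of Henle-like cells. Proximal cells had 162 and 97.6 CPM in Akita and 160 and 112 CPM in Wild-type, whereas loop of Henle-like cells had 0 UMIs in 3 libraries and 1 in Wild-type replicate 2. The edgeR log2 fold change was 4.54 ± 0.77 (SE, 4 libraries) with an adjusted p of 4.97e-08, and counted once 4.16 with an adjusted p of 4.07e-05. Proximal cells were higher in 4 of 4 libraries. Counted once, the pooled ratio of 245 to 1 UMIs relative to depth was 17.7 with an interval of 3.15 to 702. In this comparison 33.4% of 4945 tested genes passed the threshold and 21.7% were higher in proximal cells (26.2% and 17.9% counted once). Of the 6 transporters 3 could be tested, and Slc2a2 and Slc5a1 were higher, while counted once only Slc2a2 passed. The third, Slc2a5, had a log2 change of 1.34 ± 1.00 (SE, adjusted p = 0.319).

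Slc2a2 was also higher in S1-like than in other proximal cells. S1-like cells had 259 and 128 CPM in Akita and 330 and 194 CPM in Wild-type, against 144, 93.8, 121 and 104 CPM in the other proximal cells of the same libraries. Every library showed the same direction, although the 2 sets of values overlapped. The edgeR log2 fold change was 0.99 ± 0.22 (SE, 4 libraries, adjusted p = 0.000935), and counted once 0.98 with an adjusted p of 0.00402. Without Wild-type replicate 1 the change was 0.72 with an adjusted p of 0.127, and with no filter on low counts it was 0.64 with an adjusted p of 0.0677. Counted once, 55 of 273 S1-like cells (20.1%) and 134 of 867 other proximal cells (15.5%) had a Slc2a2 UMI, at median depths of 711 and 811 UMIs. When each cell was thinned to 400 UMIs these shares were 9.95% and 4.88%, over 240 and 758 cells.

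In the clusters without a segment name Slc2a2 ranged from 89.0 to 158 CPM, and in the S3-like cluster it had 1 UMI in 21 cells (21.2 CPM, interval 0.537 to 118). Outside the proximal tubule it had 15 UMIs counted once, 5 of them in 4 intercalated-like cells (55.2 CPM, interval 17.9 to 129) and 7 in the unnamed distal cells (34.7 CPM). The share of other cells with a Slc2a2 UMI was 3.41%, against 16.6% of proximal cells, and the level was 4.51-fold lower (interval 2.68 to 8.18). That fold was below those of all 22 proximal markers, of which Kap was the lowest, and its interval held the fold of Kap (5.64) but not the median of the markers (9.90). The part of background RNA in these counts was not tested.

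Slc2a1, the other basolateral glucose transporter, ran the other way. Proximal cells had 4.62 and 5.32 CPM in Akita and 4.61 and 3.61 CPM in Wild-type, from 2 or 3 UMIs a library, whereas all other cells had 32.1 and 20.8 CPM in Akita and 49.3 and 13.3 CPM in Wild-type. The proximal value was the lower in 4 of 4 libraries and the groups did not overlap. Counted once, 9 UMIs in proximal cells gave 5.04 CPM and 13 UMIs in other cells gave 26.4 CPM, a proximal over other ratio of 0.191 (interval 0.0721 to 0.483). This grouping of cells was chosen after its values were seen and was given no test. The 13 UMIs were 4 in loop of Henle-like cells (31.0 CPM), 7 in the unnamed distal cells (34.7 CPM), 1 in connecting tubule-like cells (20.5 CPM) and 1 in intercalated-like cells (11 CPM). These levels did not differ beyond their intervals.

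The fructose transporter Slc2a5 was higher in S1-like than in other proximal cells as deposited, but was not shown to differ between proximal and loop of Henle-like cells. In loop of Henle-like cells it had 2 UMIs in Akita replicate 1 (84.1 CPM, against 48.5 CPM in its proximal cells) and 0 in the other libraries, and the proximal over loop ratio counted once was 1.99 with an interval of 0.524 to 16.8. In the other 352 cells as a whole, 3 UMIs counted once gave 6.09 CPM, against 30.8 CPM from 55 UMIs in proximal cells. That is a 5.06-fold difference (interval 1.64 to 25.3), which was given no test and is near the fold of Kap (5.64). Counted once, S1-like cells had 81.5 CPM from 21 UMIs (interval 50.4 to 125), cells without a segment name 23.0 CPM from 34 UMIs (15.9 to 32.1) and S3-like cells 0 UMIs, which allows up to 63.6 CPM. As deposited, S1-like cells had 76.2 and 16.0 CPM in Akita and 124 and 19.4 CPM in Wild-type, against 43.5, 17.95, 22.7 and 7.97 CPM in other proximal cells. The S1-like value was higher in 3 of 4 libraries, and Akita replicate 2 was the exception. The edgeR log2 fold change was 1.45 ± 0.48 (SE, 4 libraries, adjusted p = 0.0265). It missed the threshold in 5 of 9 alternatives: counted once (1.33, adjusted p = 0.0920), in DESeq2 (adjusted p = 0.238), with no filter on low counts (0.103) and at Leiden resolutions 0.5 (0.0561) and 2 (0.65, adjusted p = 0.471). In this comparison 21.8% of 4571 tested genes passed, 9.56% higher in S1-like cells (17.0% and 6.75% counted once), and of the 4 transporters tested Slc5a2, Slc2a2 and Slc2a5 were higher. Counted once, Slc5a2 could not be tested and only Slc2a2 passed. The comparison was added when the S3-like cluster proved too small to test.

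Slc2a9, the urate carrier, was the scarcest member, with 21 UMIs in the retained cells. Counted once, 5 of its 18 UMIs lay in 5 of 56 connecting tubule-like cells (102 CPM, interval 33.3 to 239). Proximal S1-like cells had 7.76 CPM and proximal cells without a segment name 6.76 CPM (interval 3.24 to 12.4). Loop of Henle-like cells had 1 UMI, and intercalated-like cells had 0 of 90566 UMIs, which allows up to 33.1 CPM. The connecting tubule interval lay above that of the unnamed proximal cells. With so few molecules no test was made.

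**Figure D1:**
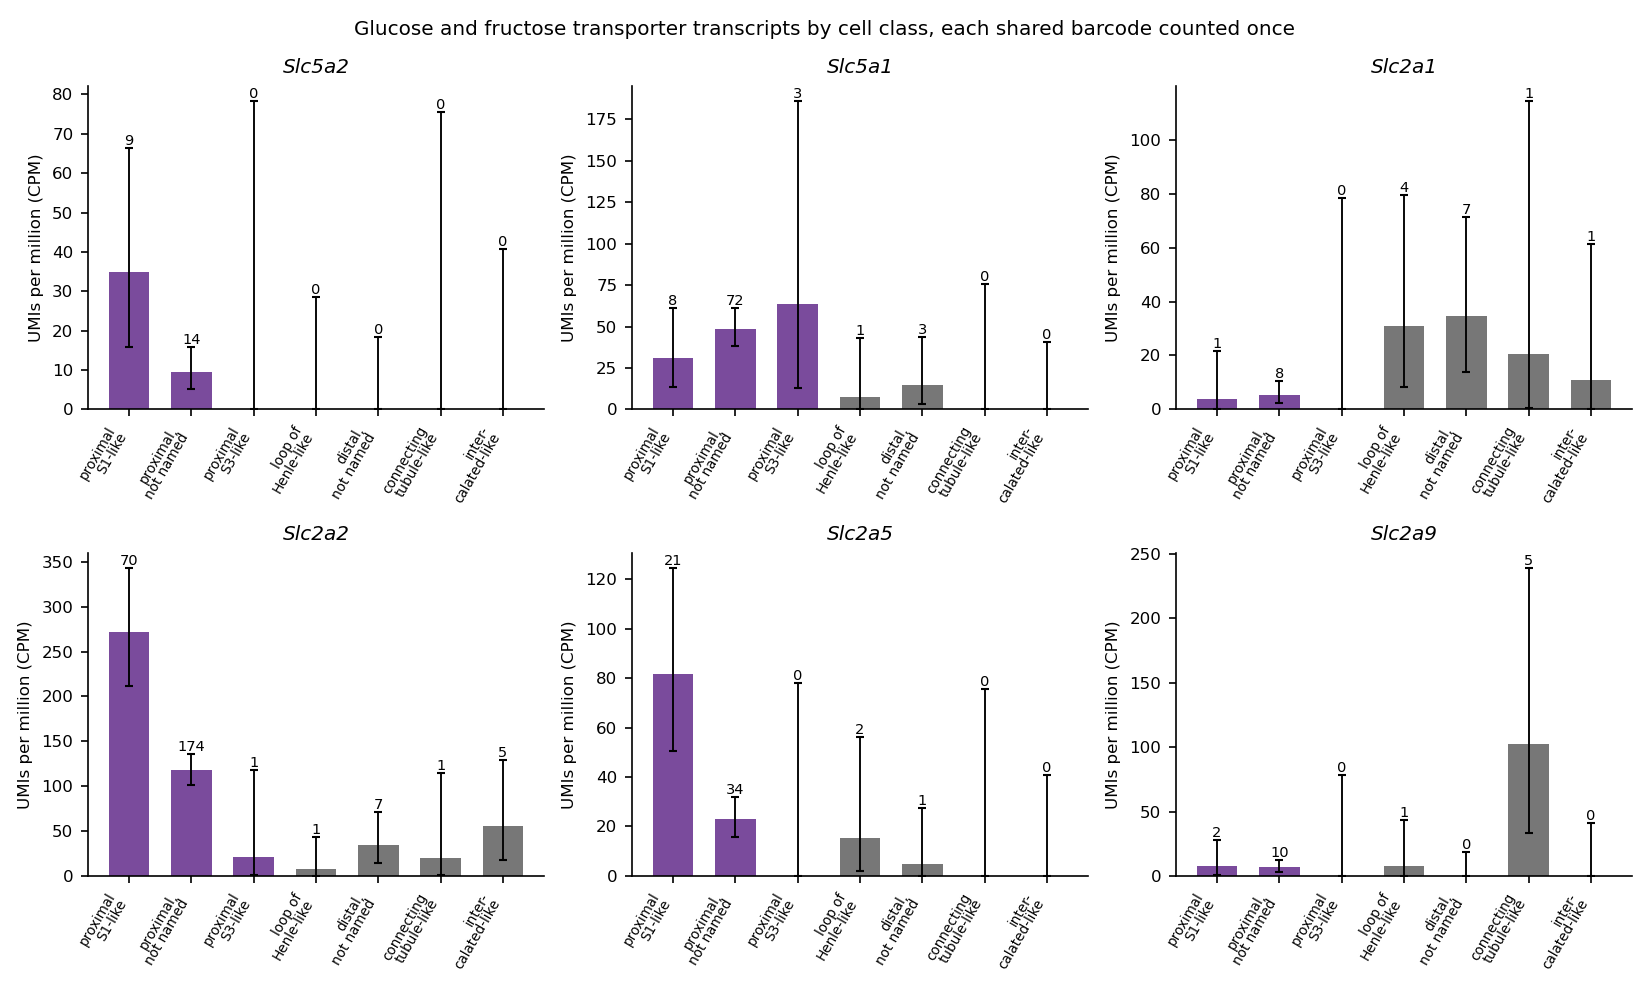
Transcripts of the 6 genes by cell class, as CPM with each shared barcode counted once. Bars are pooled levels, whiskers 95% Poisson intervals and numbers the UMI counts. Proximal classes are purple and other classes grey, and Slc5a2, Slc2a2 and Slc2a5 are tallest in the S1-like class (34.9, 272 and 81.5 CPM) while Slc2a1 is taller in loop of Henle-like cells (31.0 CPM) than in the S1-like class (3.88 CPM).

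**Figure D2:**
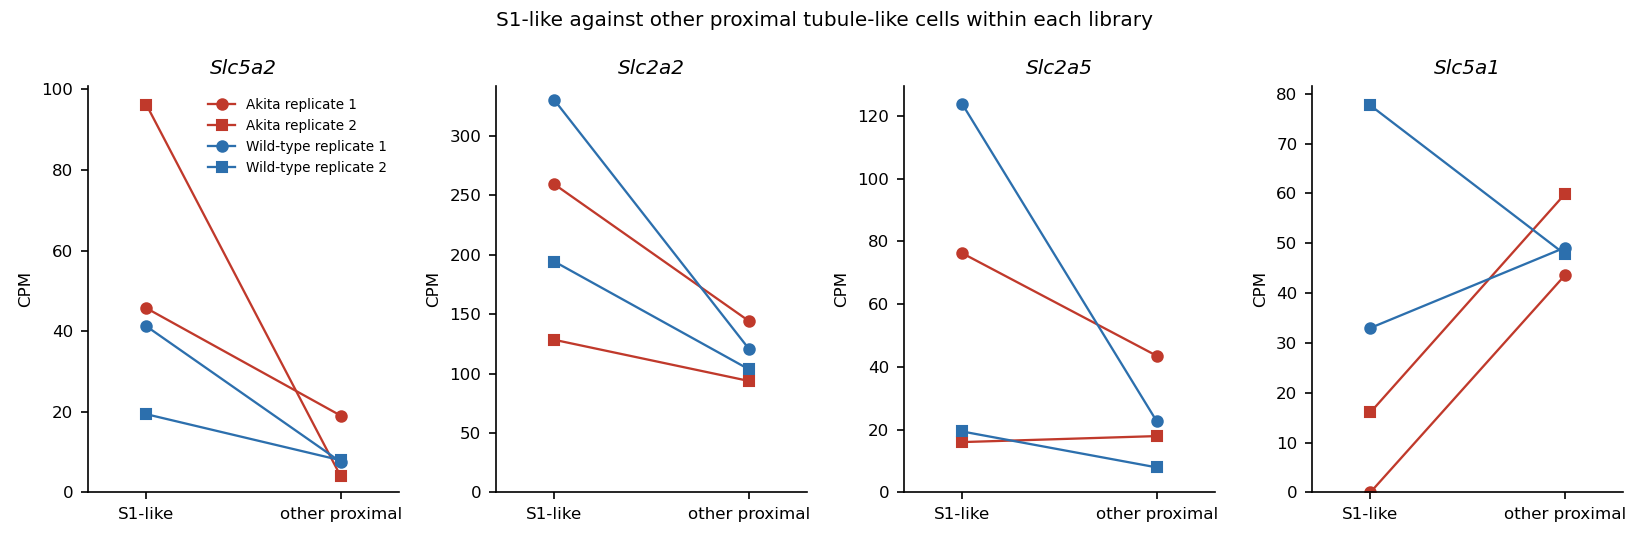
CPM of 4 transporters in S1-like and in other proximal tubule-like cells, 1 line per library as deposited (Akita red, Wild-type blue). All 4 lines fall to the right for Slc5a2 and Slc2a2, 3 of 4 for Slc2a5 and 1 of 4 for Slc5a1.

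Detection in the same cell was compared in the 1140 proximal cells counted once. Of the 22 cells with a Slc5a2 UMI, 9 (40.9%) also had a Slc2a2 UMI, against 180 of the 1118 cells without it (16.1%). The cells with Slc5a2 were deeper, with a median of 1652.5 against 778.5 UMIs. Of the 64 cells with a Slc5a1 UMI, 19 (29.7%) also had Slc2a2, against 170 of 1076 (15.8%), with medians of 2977 and 739 UMIs. Only 2 cells had both Slc5a2 and Slc5a1. Depth moved with co-detection in each case and its part was not tested.

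For the 2 members with at least 100 UMIs, the genes most alike in pattern were sought over 16 sums of a class in a library, by the correlation of log2(CPM + 10) among 5789 genes. The sums share libraries and include both proximal and other cells, so high values are common among proximal genes. Slc2a2 was most like Mapt (r = 0.968), Trim63 (0.959), Tmem252 (0.940), Slc34a1 (0.938) and Slc25a42 (0.936). Slc34a1 is the proximal sodium-phosphate cotransporter. Slc5a1 was most like Car4 (r = 0.913), Csgalnact1 (0.909), 1700016C15Rik (0.900), Park7 (0.896) and Ces2c (0.895). Car4 encodes a membrane-bound carbonic anhydrase. The 2 lists had no gene in common.

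Between Akita and Wild-type libraries, no transporter passed the test. Over all retained cells edgeR called 0 of 7169 genes (0.0%), with 68 at an unadjusted p under 0.05 and 7 such genes in DESeq2, which also called 0. Over proximal tubule-like cells it called 0 of 6108 genes (0.0%), with 62 and 7 at an unadjusted p under 0.05. As deposited, 73.0% of Akita replicate 2 cells and 80.5% of Wild-type replicate 1 cells carry barcodes found in both files. The 2 groups are thus not independent, and a lack of calls does not show that they are alike. Counted once, edgeR called 0 of 6306 genes over all retained cells, with 199 at an unadjusted p under 0.05. Over proximal cells counted once it called 0 of 5283 genes, with 135. In sums over all cells, fewer cells of a type and less RNA per cell cannot be told apart. Proximal cells were 78.8% and 72.8% of the cells in Akita and 78.6% and 73.7% in Wild-type.

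In the proximal cells Slc5a1 had a log2 change of -0.05 ± 0.36 (SE, n = 2 against 2 libraries, edgeR adjusted p = 1.00), Slc2a2 -0.11 ± 0.29 and Slc2a5 0.27 ± 0.58, with the same adjusted p. The libraries of the 2 groups overlapped for each of them. Slc2a5 varied most: Akita replicate 1 (48.5 CPM) and Wild-type replicate 1 (41.5 CPM) were high, and Akita replicate 2 (17.7 CPM) and Wild-type replicate 2 (9.03 CPM) low. Its fitted change was 1.82 without Wild-type replicate 1 and -0.51 without Akita replicate 1. Counted once, the changes were -0.06 ± 0.41 for Slc5a1, -0.54 ± 0.42 for Slc2a2 and -0.20 ± 0.79 for Slc2a5, so the direction for Slc2a5 turned. With SEs of this size, a difference well over the fitted one could not be detected in these genes.

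**Figure D3:**
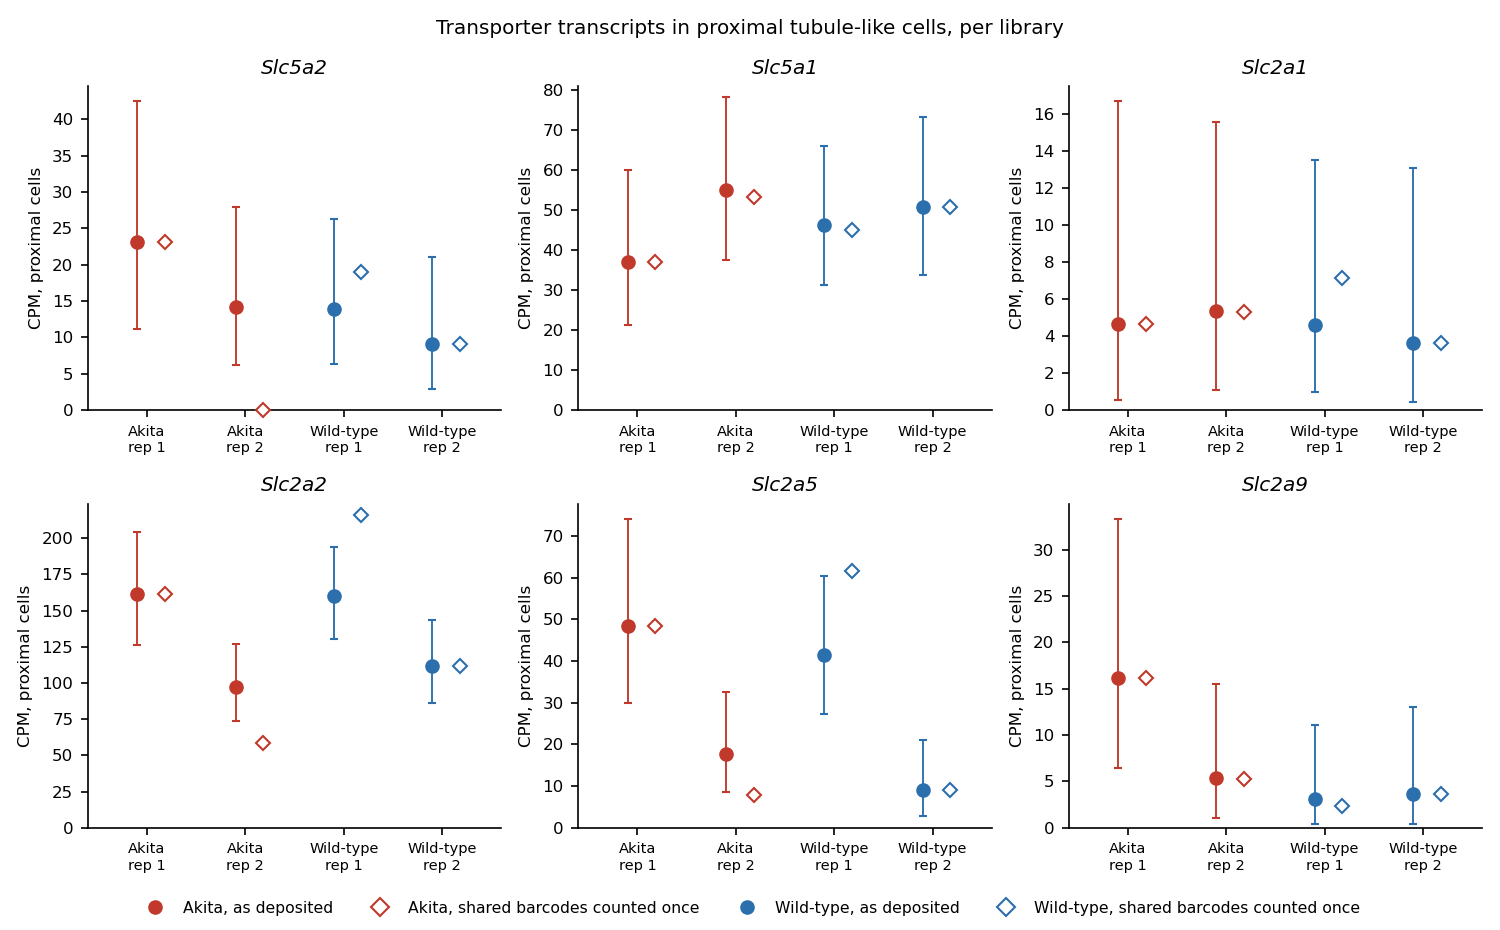
CPM of the 6 genes in proximal tubule-like cells of each library. Circles are values as deposited with 95% Poisson intervals and open diamonds are values with each shared barcode counted once (Akita red, Wild-type blue). The diamonds part from the circles in Akita replicate 2 and Wild-type replicate 1: Slc2a2 is 58.4 and 216 CPM there, against 97.6 and 160 CPM as deposited.

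**Figure D4:**
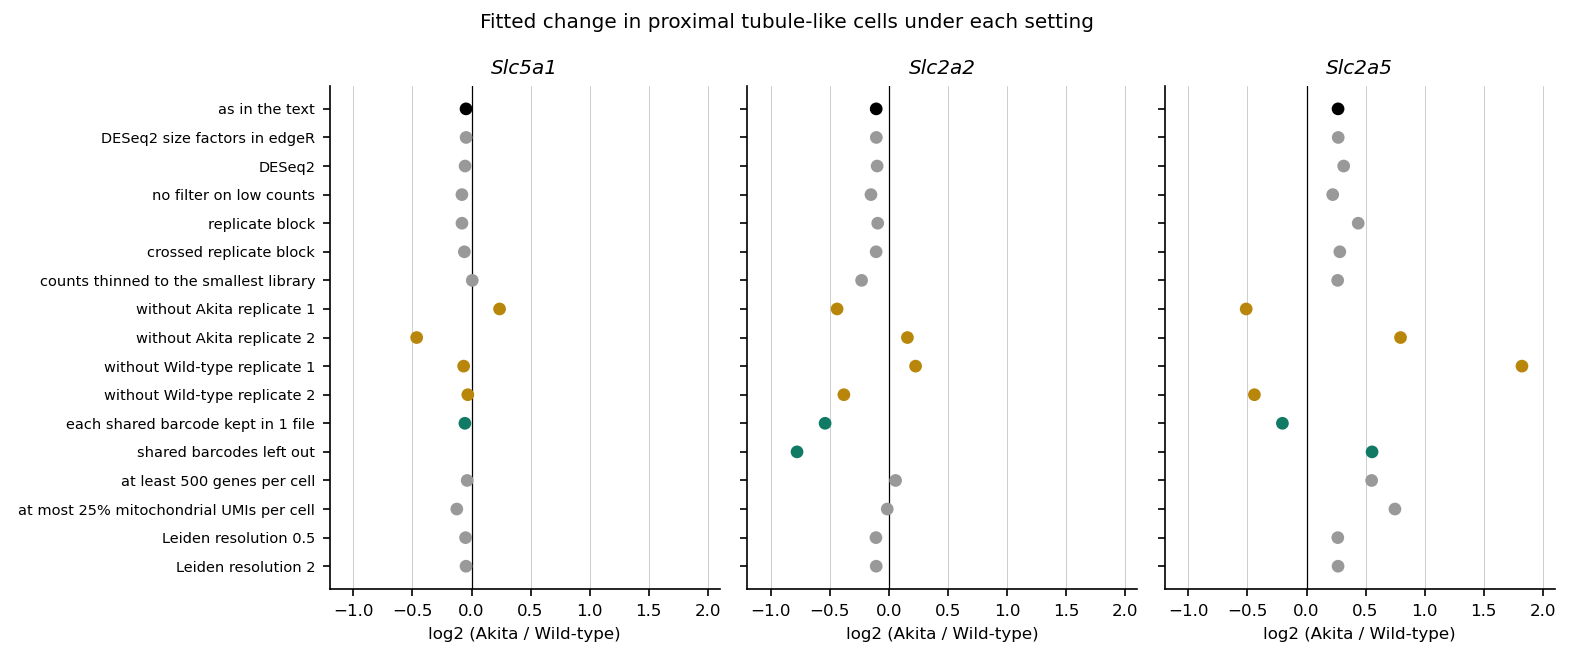
Fitted log2 ratio of Akita over Wild-type in proximal tubule-like cells for the 3 genes that could be tested, 1 point per setting (black as in the text, ochre with 1 library left out, green for the handling of shared barcodes, grey for others). The points for Slc2a5 run from -0.51 to 1.82 and those for Slc5a1 from -0.46 to 0.24.

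The 3 scarcer members fell under the filter on low counts and were compared by mean CPM over all retained cells with an exact two-sided permutation test, whose smallest possible p for 2 against 2 is 0.33. Slc5a2 averaged 14.3 ± 5.19 CPM in Akita, against 9.09 ± 2.81 CPM in Wild-type (SD, n = 2 each, exact p = 0.667). Its values were 17.9 and 10.6 CPM in Akita and 11.1 and 7.10 CPM in Wild-type, which overlap. Counted once, Akita replicate 2 had 0 UMIs and the difference turned to -2.92 CPM. Slc2a1 averaged 10.01 ± 1.06 CPM in Akita, against 9.61 ± 5.55 CPM in Wild-type (exact p = 1.00), and Slc2a9 averaged 9.58 ± 4.19 CPM in Akita, against 6.11 ± 3.42 CPM in Wild-type (exact p = 0.667). In proximal cells alone, Slc2a9 had 7 and 3 UMIs (16.2 and 5.32 CPM) in Akita and 2 and 2 UMIs (3.07 and 3.61 CPM) in Wild-type. Akita was the higher without overlap in these cells for Slc2a9, for Slc5a2 (23.1 and 14.2 against 13.8 and 9.03 CPM) and for Slc2a1. The Slc2a1 values were 4.62 and 5.32 CPM in Akita, against 4.61 and 3.61 CPM in Wild-type. For Slc5a2 and Slc2a1 the gap between the groups was smaller than the level of a single UMI. Of the genes that passed the filter, which these 3 did not, 11.6% had Akita higher without overlap. Counted once, only Slc2a9 of the 3 still had no overlap, and the share was 13.0%.

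The shared barcodes fell into 2 modes by their UMI ratio between the files, 363 with relatively more in Akita replicate 2 and 521 with relatively more in Wild-type replicate 1. The intervals of Slc2a2 and Slc2a5 in proximal cells did not overlap between these modes, but the share of all genes that do so was not counted. These intervals pool the cells of a mode and cover counting error only. Among proximal cells of the first mode Slc5a2 had 0 UMIs in 177 cells (interval 0 to 11.85), and in the second 8 UMIs in 169 cells (22.5 CPM, interval 9.71 to 44.3), so these intervals overlapped. Slc2a2 was at 57.8 CPM (34.3 to 91.4) in the first mode and at 180 CPM (139 to 230) in the second. Slc2a5 was at 6.42 CPM (0.778 to 23.2) in the first and at 56.2 CPM (34.4 to 86.9) in the second, whereas Slc5a1 was at 61.0 and 47.8 CPM with overlapping intervals. Slc2a1 (6.42 and 5.62 CPM) and Slc2a9 (3.21 and 2.81 CPM), with 1 or 2 UMIs in each mode, also overlapped. S1-like cells made up 10.7% of the proximal cells of the first mode and 30.2% of those of the second. Kap stood at 69824 CPM in the first mode and 15277 CPM in the second. The part of the S1-like share in these differences was not tested.

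**Figure D5:**
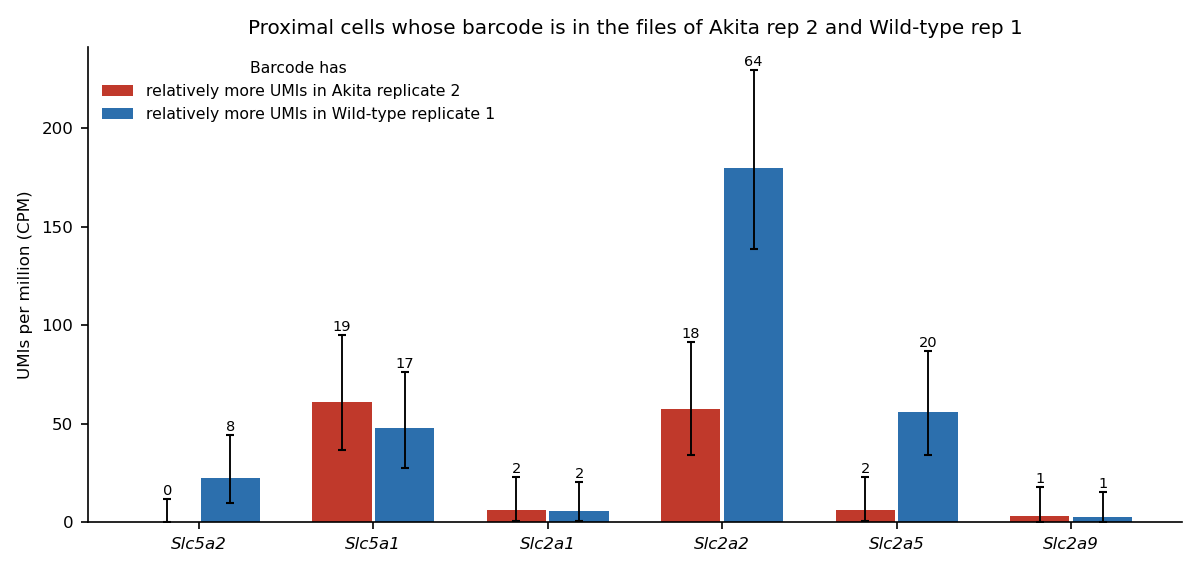
CPM of the 6 genes in proximal tubule-like cells whose barcode occurred in both the Akita replicate 2 and the Wild-type replicate 1 file, split by the file with relatively more of the barcode's UMIs. Whiskers are 95% Poisson intervals and numbers UMI counts. Slc2a2 has 18 UMIs in the Akita replicate 2 mode and 64 in the Wild-type replicate 1 mode, and Slc5a1 19 and 17.

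Genes that work beside the transporters were described from 4 lists. These genes, unlike the 6 transporters, were open to the clustering, so their differences between classes describe the classes and are no test. Of 16 other SLC2 and SLC5 genes, 12 had UMIs and 4 could be tested between proximal and loop of Henle-like cells. Slc5a8, Slc5a10 and Slc5a12 passed higher in proximal cells and Slc5a3, the sodium-myo-inositol cotransporter, passed lower. Slc5a10, which carries fructose and mannose with sodium, averaged 204 ± 55.1 CPM in proximal cells and 20.9 ± 17.2 CPM in loop of Henle-like cells (SD, n = 4 libraries). Slc5a3 averaged 9.63 ± 6.41 CPM in proximal cells and 68.9 ± 38.5 CPM in loop of Henle-like cells. The median log2 change of the 4 was 3.31, against 0.18 over all genes tested, of which 33.4% passed and 21.7% passed higher.

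Of 9 tested partners and regulators of glucose reabsorption, 4 were higher in proximal cells (Pdzk1ip1, Hnf4a, Slc9a3 and Pdzk1) and 3 lower (among them Atp1b1 and Txnip), with a median of 1.16, against 21.7% higher among all genes tested. Pdzk1ip1 encodes MAP17, the partner protein that SGLT2 needs for activity. It averaged 703 ± 58.4 CPM in proximal and 358 ± 68.2 CPM in loop of Henle-like cells, and within the proximal cells 1098 ± 142 CPM in S1-like and 643 ± 51.5 CPM in other proximal cells (SD, n = 4 libraries). Pdzk1ip1 stood higher in S1-like cells in 4 of 4 libraries, as Slc5a2 did as deposited, where 2 of the libraries share barcodes. Counted once, Akita replicate 2 had 0 Slc5a2 UMIs and gives no direction. Txnip, which glucose induces, averaged 22.0 ± 11.6 CPM in proximal cells, against 98.2 ± 52.1 CPM in loop of Henle-like cells.

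Of 10 tested genes of glucose and fructose metabolism, 8 were higher in proximal cells (21.7% of all genes tested were) and Hk1 was lower, with a median of 2.87. Counted once, 8 could be tested and all 8 were higher, and Hk1 fell under the filter on low counts. G6pc, the glucose-6-phosphatase that releases free glucose, averaged 214 ± 27.2 CPM in proximal and 4.75 ± 9.49 CPM in loop of Henle-like cells, and 395 ± 74.8 CPM in S1-like against 184 ± 12.1 CPM in other proximal cells. Hk1, a hexokinase, averaged 1.80 ± 2.56 CPM in proximal and 68.7 ± 27.9 CPM in loop of Henle-like cells. Slc2a1 averaged 4.54 ± 0.70 CPM and 32.4 ± 28.4 CPM in the same classes, but its 2 sets of values overlapped. In Akita replicate 1 Slc2a1 had 0 CPM in loop of Henle-like cells, against 4.62 CPM in proximal cells. Khk, the fructokinase downstream of GLUT5, averaged 726 ± 62.1 CPM in proximal and 144 ± 59.9 CPM in loop of Henle-like cells. All 7 tested genes of urate handling were higher in proximal cells, as deposited and counted once (21.7% and 17.9% of all genes tested), with a median of 4.16, among them Slc22a12 (URAT1) at 911 ± 112 CPM against 72.2 ± 41.2 CPM.

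Between S1-like and other proximal cells the lists split. Of 3 tested SLC2 and SLC5 genes Slc5a12, itself an S1 marker, was higher and Slc5a8 and Slc5a10 lower. Slc5a10 averaged 114 ± 95 CPM in S1-like and 219 ± 54.8 CPM in other proximal cells. Of the urate genes Slc22a8 was higher and Slc22a12, Slc17a3 and Slc22a6 lower, of 7 tested, where 21.8% of all genes passed. Slc22a12 lost its call counted once (adjusted p = 0.198 in edgeR) and in DESeq2 (adjusted p = 0.165). Between Akita and Wild-type, none of the tested genes of the 4 lists passed (6, 10, 10 and 7 genes over all retained cells), and their median log2 changes ran from -0.08 to 0.14. Pck1, a gluconeogenic enzyme, averaged 2096 ± 6.18 CPM in proximal cells of Akita, against 1435 ± 972 CPM in those of Wild-type (SD, n = 2 each), with a log2 change of 0.52 and an edgeR adjusted p of 1.00.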

How the data were processed

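For each of 4 renal cortex libraries the deposited file lists UMI counts for pairs of a gene and a barcode, not normalized. The authors used UMI-tools 0.5.3, STAR 2.5.2b and featureCounts 1.6.0 on GRCm38, per the submitters' processing notes; no cell filter is recorded. Each file held 4 strings that were no barcodes (1.08% to 1.33% of UMIs), which were left out, and 32 gene identifiers had no symbol. Retained cells (above) were clustered with scanpy 1.11.5 and leidenalg 0.10.2 (2000 variable genes, 30 components, 15 neighbours, resolution 1) without the 6 transporters. Scrublet marked 6 doublets, which were kept. UMIs were summed per library, or per class and library, and compared with edgeR 4.0.16 in R 4.3.3 (TMM, filterByExpr, quasi-likelihood test, two-sided, Benjamini-Hochberg over all genes tested, threshold 0.05); DESeq2 1.42.0 was an alternative. Class comparisons had library as a block. Nothing states that the replicates are separate animals beyond their ages, so the Akita against Wild-type p-values measure the spread between libraries. Those of the class comparisons measure the spread of the class difference between libraries. As deposited, 2 of the 4 libraries share barcodes and are not independent.

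The genes and lists were chosen with earlier results of these data known. The text names the 6 transporters, the 4 most abundant genes of each list and those past the threshold, or some of them, and the 5 genes most alike in pattern. The comparison tests were also run on simulated counts, drawn independently for each sum. Those counts held no shared barcodes, so this check cannot show how the tests behave with them. Shares have exact binomial and levels exact Poisson intervals (95%). The sequences and most settings tried are described with the results.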

Additional observations from a re-analysis of the deposited data

How the results depend on the processing

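No transporter passed the Akita against Wild-type test under any setting tried. The number of genes called over all retained cells was 0, and 1 with no filter on low counts; with 1 library left out it ran from 0 to 23. Over proximal cells it was 0, and 1 with no filter, and 0 to 14 with 1 library left out. Leaving out Akita replicate 2 gave 23 and 11 calls and leaving out Wild-type replicate 1 gave 14 and 14, and the lone library of a group is then assumed to vary like the others; the cause was not tested. The replicate block gave 0 calls in both, as did the crossed pairing (0 and 0). Deviations of same-numbered libraries correlated at -0.217 over 7169 genes. The barcodes shared by Akita replicate 2 and Wild-type replicate 1 enter this value, so it cannot decide whether the numbers pair the libraries. Under the replicate block the log2 changes in proximal cells were -0.08 for Slc5a1, -0.10 for Slc2a2 and 0.44 for Slc2a5.

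Signs turned for small fitted changes. Over all retained cells, Slc5a1 ranged with 1 library left out from -0.58 to 0.044 and Slc2a2 from -0.46 to 0.21; Slc2a2 was also -0.59 counted once, -0.81 with shared barcodes left out, 0.12 thinned to the smallest library, 0.063 at 500 or more genes and 0.015 at 25% or less mitochondrial UMIs. Slc2a5 ran from -0.61 to 1.92 with 1 library left out and was -0.23 counted once. In proximal cells Slc5a1 ran from -0.46 to 0.24 and was 0.0065 thinned, Slc2a2 ran from -0.44 to 0.22 and was -0.54 counted once, -0.78 with shared barcodes left out and 0.056 at 500 or more genes, and Slc2a5 ran from -0.51 to 1.82 and was -0.20 counted once. The CPM difference of Slc5a2 was -2.92 counted once, and that of Slc2a1 was -0.094 counted once, -12.0 with shared barcodes left out and -1.26 over every deposited barcode. With 1 library left out that of Slc2a1 ran from -3.52 to 4.33.

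Proximal against loop of Henle-like calls, 1652 of 4945 genes, fell to 1079 in DESeq2, 1085 counted once, 514 with shared barcodes left out (where 1262 genes could be tested), and ran from 1013 to 1526 with 1 library left out. S1-like calls, 996 of 4571, fell to 449 in DESeq2, 351 with shared barcodes left out (1098 tested), 590 at 500 or more genes, and ran from 523 to 1075 with 1 library left out. Slc2a2 kept its call for proximal over loop of Henle-like cells in all 12 alternatives. The S3-like comparison was not run. Counts of at most 11 UMIs per library limit Slc5a2, Slc2a1 and Slc2a9.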
